A study of Mus musculus with 35 samples.

Results

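The sites described here are genomic regions bound by KLF4 on day 3 or day 6 of reprogramming, divided by whether acetylation of histone H3 at lysine 27 (H3K27ac) was found at the same place on the same day. A region entered when KLF4 peaks of a day, merged across its 2 libraries, were overlapped by both of them, on chromosomes 1 to 19 and X. It was called acetylated when H3K27ac peaks of all 3 libraries of that day overlapped it, and non-acetylated when none did. Day 3 gave 17909 such KLF4 sites out of 44618 merged regions, of which 8575 were acetylated (47.9%) and 5562 were non-acetylated (31.1%). Day 6 gave 15157 sites out of 30803 regions, with 4968 acetylated (32.8%) and 6538 non-acetylated (43.1%). The 25643 sites of the 4 classes are set against 85740 KLF4 regions merged over all 10 KLF4 libraries of the series. Sites with a peak in 1 or 2 H3K27ac libraries lie between the classes and were left out of them. They numbered 2020 with 1 library and 1752 with 2 libraries on day 3, and 2264 and 1387 on day 6.

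The cells were mouse embryonic fibroblasts (MEF) carrying an OKSM cassette (Pou5f1, Klf4, Sox2 and Myc on 1 transcript) in Col1a1 and the M2rtTA activator in Rosa26. Doxycycline at 1 µg/ml switched the cassette on, and ascorbic acid was present at 50 µg/ml. Day 3 cells were an unsorted bulk population, whereas day 6 and day 9 cells were sorted for the surface marker SSEA1, so that day and sorting cannot be told apart. The end point was the V6.5 embryonic stem cell (ESC) line, 1 line, grown on feeders in serum and LIF, and for 2 KLF4 libraries also with a MEK inhibitor at 1 µM and a GSK3 inhibitor at 3 µM (2i). KLF4 made in the reprogramming cells comes from the cassette as well as from the cells' own gene, and ESC have only their own.

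The labelled stages were checked against marker genes. H3K27ac was found near 7 of 7 fibroblast markers in MEF, at least 6 on day 3, and 2 on days 6 and 9. Of 7 pluripotency markers, at most 1 was marked in MEF and on days 3 and 6, 4 on day 9 and 7 in ESC. Of 4 epithelial markers, 1 was marked in MEF, 1 or 2 on day 3, 2 or 3 on day 6 and 4 on day 9. Of 3 endothelial markers, at most 1 was marked on day 3 and none in MEF or on day 6, and none of 3 blood and 3 neural markers was marked through day 6. On day 9 at most 1 blood marker was marked, and no endothelial or neural one. In ESC, 2 neural, 1 or 2 endothelial, 1 blood and 2 or 3 fibroblast markers were marked. Fewer cells with a mark and less of it per cell cannot be told apart in such bulk lists. The replicates are described as biological, and each test takes 1 value per library. In tests that flip the sign of each library's difference, the p-value depends only on the number of libraries once all differences share a sign. The later KLF4 libraries come from day 9, serum ESC and 2i and are read over the same sites. They are therefore not replicates of 1 condition.

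KLF4 is a zinc finger transcription factor that binds GC-rich sequence and is one of the factors used to turn fibroblasts into pluripotent cells. In such cells it is known to bind both genes of the fibroblast program, which are silenced, and genes of the epithelial and pluripotency programs, which are switched on. H3K27ac is placed by the acetyltransferases p300 and CBP and marks promoters and enhancers in use, so its presence or absence at a KLF4 site separates sites in active chromatin from sites bound without this mark.

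Which bases KLF4 bound within its sites was not examined. Promoters of some of the best scored sites in each class are printed first, to show promoter sequence under sites with and without acetylation. They are the highest scored sites whose promoter holds a match to the KLF motif, so the match itself is no finding. Each is the strand of the gene, 5′ to 3′, from 250 bases before to 50 bases after the RefSeq gene start (GRCm38.p6, the assembly also called mm10), with matches to GGGNGTGG or its reverse complement in capitals. The first 3 promoters carried acetylated sites. Arhgap28 codes for a GTPase-activating protein (chr17:68004059-68004358, minus strand), Notch1 for a signalling receptor (chr2:26503773-26504072, minus strand) and Esrra for an orphan nuclear receptor (chr19:6921759-6922058, minus strand).
Arhgap28: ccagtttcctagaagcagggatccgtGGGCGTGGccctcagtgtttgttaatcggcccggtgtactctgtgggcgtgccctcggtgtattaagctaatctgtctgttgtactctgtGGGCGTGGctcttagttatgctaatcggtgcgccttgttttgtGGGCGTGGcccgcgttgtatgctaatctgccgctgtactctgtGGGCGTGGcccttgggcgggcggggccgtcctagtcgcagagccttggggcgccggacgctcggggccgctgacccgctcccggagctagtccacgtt
Notch1: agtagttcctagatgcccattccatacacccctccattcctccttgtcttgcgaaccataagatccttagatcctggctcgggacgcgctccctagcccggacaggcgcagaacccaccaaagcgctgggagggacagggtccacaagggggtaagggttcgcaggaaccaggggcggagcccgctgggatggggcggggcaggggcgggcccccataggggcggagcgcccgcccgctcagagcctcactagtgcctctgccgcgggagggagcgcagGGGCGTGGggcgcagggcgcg
Esrra: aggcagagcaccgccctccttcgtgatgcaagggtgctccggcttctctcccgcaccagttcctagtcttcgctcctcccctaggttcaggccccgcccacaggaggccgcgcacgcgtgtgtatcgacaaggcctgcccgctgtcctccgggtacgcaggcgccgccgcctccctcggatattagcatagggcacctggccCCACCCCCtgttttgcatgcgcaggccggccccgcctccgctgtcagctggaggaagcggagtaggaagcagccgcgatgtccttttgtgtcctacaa
The next 4 carried non-acetylated sites. Ass1 codes for argininosuccinate synthase of arginine synthesis (chr2:31470020-31470319, plus strand) and Usp12 for a deubiquitinating enzyme (chr5:146794907-146795206, minus strand), and their sites were non-acetylated on day 3. The promoters of 1110008P14Rik (chr2:32381866-32382165, minus strand) and Bhlha15, which codes for a transcription factor of secretory cells (chr5:144190036-144190335, plus strand), carried sites non-acetylated on day 6.
Ass1: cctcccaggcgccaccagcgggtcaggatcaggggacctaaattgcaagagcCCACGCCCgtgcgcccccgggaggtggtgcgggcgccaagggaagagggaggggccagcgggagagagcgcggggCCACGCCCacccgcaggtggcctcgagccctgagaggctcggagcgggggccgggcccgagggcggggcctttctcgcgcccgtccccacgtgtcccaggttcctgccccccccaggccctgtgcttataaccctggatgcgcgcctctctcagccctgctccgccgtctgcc
Usp12: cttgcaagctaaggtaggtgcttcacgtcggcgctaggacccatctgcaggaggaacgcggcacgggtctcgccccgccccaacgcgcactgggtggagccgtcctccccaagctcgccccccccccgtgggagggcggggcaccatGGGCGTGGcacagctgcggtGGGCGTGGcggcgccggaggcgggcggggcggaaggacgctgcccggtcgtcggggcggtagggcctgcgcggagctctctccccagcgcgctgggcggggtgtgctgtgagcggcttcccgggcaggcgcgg
1110008P14Rik: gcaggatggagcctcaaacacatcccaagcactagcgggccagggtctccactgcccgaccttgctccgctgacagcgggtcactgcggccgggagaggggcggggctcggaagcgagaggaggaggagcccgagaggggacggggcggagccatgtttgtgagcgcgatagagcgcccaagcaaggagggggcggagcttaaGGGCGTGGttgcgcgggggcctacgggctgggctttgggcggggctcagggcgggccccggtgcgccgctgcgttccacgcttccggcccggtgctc
Bhlha15: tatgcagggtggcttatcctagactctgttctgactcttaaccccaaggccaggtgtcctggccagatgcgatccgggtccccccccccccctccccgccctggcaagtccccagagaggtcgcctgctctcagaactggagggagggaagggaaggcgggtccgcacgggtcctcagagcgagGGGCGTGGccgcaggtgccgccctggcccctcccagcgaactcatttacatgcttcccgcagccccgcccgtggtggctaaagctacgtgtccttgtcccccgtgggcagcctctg
The Arhgap28 window held 4 matches, and the site over it was bound by KLF4 and acetylated in every library of every stage. Ass1 and Usp12 held 2 matches each, and Notch1, Esrra, 1110008P14Rik and Bhlha15 held 1. The Ass1 and Usp12 sites had an H3K27ac peak in both MEF, both day 9 and both ESC libraries, but in none of 3 on day 3. The Bhlha15 site had no H3K27ac peak in MEF, on day 3, on day 6 or in ESC, and 1 of 2 libraries showed one on day 9.

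The motif was found in both kinds of promoter. Of 21045 RefSeq promoter windows, 19.6% held GGGNGTGG on either strand. The share was 30.0% of 3728 windows under acetylated day 3 sites and 35.7% of 266 under non-acetylated ones. On day 6 it was 32.7% of 3290 windows and 38.7% of 517. The AP-1 motif TGANTCA, read on both strands and bound by Fos and Jun proteins, was in 7.04% of all windows and in 3.92%, 4.89%, 3.34% and 3.48% of those 4 sets in the same order. The octamer ATGCAAAT, bound by POU5F1, was in 1.68% of all windows, and in 1.82% and 1.91% of those under acetylated sites against 3.76% and 2.90% of those under non-acetylated ones, which rest on 10 and 15 windows. None of the 3 motifs contains another, and the shares describe letters in a window of 300 bases. Sequence of sites away from promoters was not analysed here.

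Acetylated KLF4 sites lay within 2.5 kb of a gene start more often than non-acetylated ones, although 4009 of the 8575 acetylated day 3 sites lay farther away. On day 3, 53.2% of acetylated sites had their midpoint within 2.5 kb of the nearest start of a protein-coding gene, against 13.2% of non-acetylated sites, and the median distances were 1332 and 26129.5 bp. On day 6 the shares were 76.4% and 16.9%, and the median distances 192 and 20861.5 bp. Sites over 50 kb from any start made up 34.0% of the non-acetylated class on day 3 and 30.3% on day 6, and 16.0% and 6.30% of the acetylated class. The sites acetylated in 1 or 2 libraries fell between, with 22.2% near a start on day 3 and 29.4% on day 6.

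**Figure D1:**
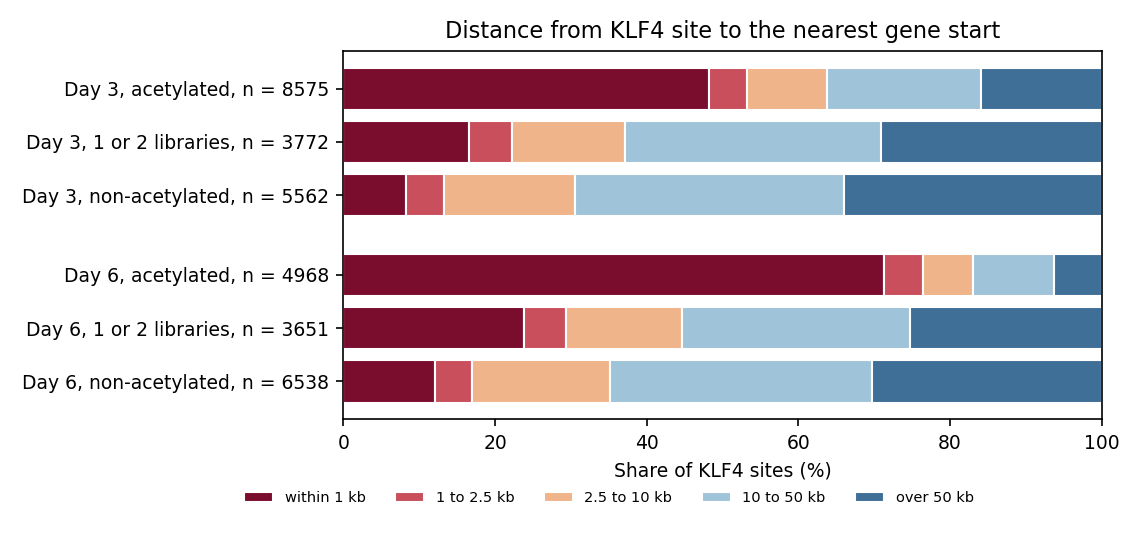
Share of KLF4 sites (%, horizontal axis) by distance from the site's midpoint to the nearest gene start, for the acetylated, intermediate and non-acetylated sites of each day; each bar adds to all sites of its class. The darkest block, sites within 1 kb, covers 48.2% and 71.3% of acetylated sites on days 3 and 6 and 8.22% and 12.0% of non-acetylated ones.

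Each KLF4 library's own peaks were then placed. Since a site had to be bound in both libraries of its day, the 2 libraries of a day give positions, widths and scores at the same sites and are not independent of each other. In the day 3 library of batch EA-3702, 53.5% of its peaks in acetylated sites and 13.2% of those in non-acetylated sites were near a start, and in the other day 3 library, from batch DG-4040, 54.8% and 13.3% were. On day 6 they were 76.4% and 16.9% in EA-3702, and 76.9% and 17.0% in DG-4040. The mean difference was 50.3 points, with the near agreement of the libraries within a day set by the shared sites. A two-sided exact permutation test, which flips the sign of each library's difference, gave p = 0.13, the smallest that 4 libraries allow, and p = 0.156 after Benjamini-Hochberg adjustment over the 10 tests made. The design therefore cannot place this difference past 0.05. Gene starts of 4357 of 21631 genes were not in the start table, and for these the nearer end of the gene was used. With genes of listed start alone the mean difference was 44.4 points.

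KLF4 peaks were broader where the chromatin was acetylated. In EA-3702 the median peak width was 613 bp in acetylated and 366 bp in non-acetylated sites on day 3, and 527 against 277 bp on day 6. In DG-4040 it was 316 against 237 bp on day 3, and 369 against 312 bp on day 6. The log2 ratios were 0.74 and 0.93 in EA-3702 and 0.42 and 0.24 in DG-4040, all above 0, with a mean of 0.58 (exact permutation p = 0.13, adjusted p = 0.156). The size of the difference moved with the batch, and the part of the batch in it was not tested. Classes rest on a shared 1 bp, which a wider region meets more easily. With classes set on 200 bp about each midpoint, the mean log2 ratio was 0.48.

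The strength of the KLF4 peaks did not separate the classes as evenly. Strength was read as the percentile of the authors' score within its own list, with 100 the best peak. Acetylated sites ranked higher in EA-3702, at a median of 79.5 against 55.8 on day 3 and 79.7 against 44.0 on day 6. In DG-4040 the medians were 65.7 against 54.7 on day 3, and 61.8 against 62.3 on day 6, where the order was reversed by 0.53. The mean difference over the 4 libraries was 17.5 percentile points (exact permutation p = 0.25, adjusted p = 0.25).

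**Figure D2:**
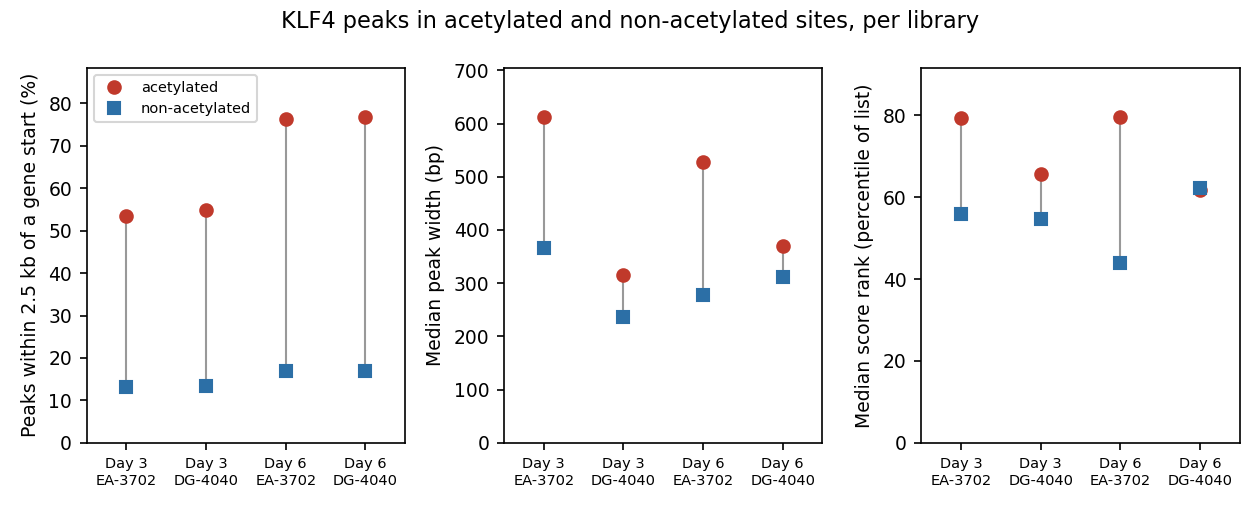
Each of the 4 KLF4 libraries of day 3 and day 6 (horizontal axis, named by day and batch): share of peaks within 2.5 kb of a gene start (%), median peak width (bp) and median percentile of the authors' score, for peaks in acetylated sites (circles) and non-acetylated sites (squares). Acetylated sites lie above in every pair except the score percentile of day 6 in batch DG-4040.

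The share of KLF4 sites with H3K27ac on the same day was lower on day 6, with overlap between the libraries. On day 3 it was 64.9% in EA-3702, and 56.8% and 52.8% in the DG-3458 libraries, with a mean of 58.2% ± 6.17 (SD, n = 3). On day 6 it was 54.0% in EA-3702, and 40.2% and 37.3% in DG-3458, with a mean of 43.9% ± 8.93 (SD, n = 3). The highest day 6 library stood above the lowest day 3 library, and the difference of -14.3 points had p = 0.20 in a two-sided exact permutation test of 3 against 3, which cannot go below 0.10 (adjusted p = 0.222). Within each H3K27ac batch the day 6 libraries stood below the day 3 libraries, but with sites also taken from batch EA-3702 alone the difference was -1.40 points. The day 6 H3K27ac lists were shorter, with 17493 to 22462 peaks against 41471 to 50836. When each list was held to its best 17493 peaks the difference was -1.39 points. It was 5.53 points when the day 3 sites came from the DG-4040 KLF4 library alone and -4.64 when they came from the EA-3702 one, and -29.0 when the day 6 sites came from DG-4040 alone. Sites moved by 1 Mb met H3K27ac peaks in 2.74% of cases on day 3 and 1.27% on day 6.

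Non-acetylated sites were not at the rim of acetylated regions in most cases. The nearest H3K27ac peak of any library of the day was at a median of 8169 bp on day 3 and 14917 bp on day 6. It was within 1 kb for 25.4% of the non-acetylated day 3 sites and 21.3% of the day 6 sites, and over 10 kb away for 46.2% and 57.2%.

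The 8 acetylated sites that ranked first on day 3, 1 per nearest gene, were those of Grap, Arhgap28, Map4k4, Ext1, Klf13, Klhdc8a, Src and Pitpnb. The 8 non-acetylated ones were those of Ass1, Flrt1, Map3k6, Lrrc26, Snx18, Rsbn1, S100a14 and Polr1b. On day 6 the acetylated ones were Klf13, Arhgap28, Klf3, Map4k4, Esrra, Rnf169, Akap12 and Pbx3, and the non-acetylated ones Grap, Map3k6, Slc25a23, Klhdc8a, Sox2, Lrrc26, Tfpi and Tm4sf1. All 16 sites of day 3 were bound in both day 9 and both serum ESC libraries, and so were the 16 of day 6 except the Tm4sf1 site, which was bound in both day 9 libraries and in no ESC or 2i library. These sites were chosen by their KLF4 score, so their binding is a description.

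A site 18398 bp from the start of Klf13, a member of KLF4's own family (chr7:63956861-63957766), had no H3K27ac peak in MEF and a peak in all libraries of day 3, day 6, day 9 and ESC. The site within Map3k6, which codes for a stress kinase (chr4:133250311-133251534), was bound in every KLF4 library and had no H3K27ac peak in any library of any stage. The same was true of a site within Grin1, 2897 bp from the start of Lrrc26, a regulator of potassium channels (chr2:25292151-25293467). A site nearest to Grap, an adaptor of receptor signalling (chr11:61619713-61620943), was acetylated in both MEF and all 3 day 3 libraries, in 0 of 3 on day 6, and again in both day 9 and both ESC libraries. It was bound throughout, so that it ranked first among acetylated sites on day 3 and first among non-acetylated sites on day 6. A site 235323 bp from Sox2, a core pluripotency gene (chr3:34885084-34885554), went through the same states, and its score percentile was 99.4 on day 3 and 99.6 on day 6.

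The gene lists were read against the shares of all genes, among which acetylated sites were the more common on day 3 and non-acetylated ones on day 6. A gene was counted for a class when it was the nearest gene of at least 1 site. Of all 21631 protein-coding genes, 26.3% had an acetylated and 18.4% a non-acetylated day 3 site, and 18.9% and 21.1% had one on day 6. Of 28 mesenchymal genes, 16 had an acetylated and 8 a non-acetylated site on day 3. On day 6 these were 5, close to the share of all genes, and 12. Of 25 epithelial genes, 4 had an acetylated and 12 a non-acetylated site on day 3. On day 6 these were 5, again close to the share of all genes, and 15. Of 26 pluripotency genes, 7 had an acetylated site on each day, close to the share of all genes on day 3, and 12 and 15 had a non-acetylated one. Counts of genes with a non-acetylated site were above the share of all genes in the mesenchymal, AP-1 and KLF lists as well, so this is not particular to the epithelial and pluripotency lists. The counts carry no test, since the lists were chosen with results known.

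The mesenchymal genes had fewer acetylated KLF4 sites on day 6 than on day 3. Their acetylated sites numbered 28 and 7, where all acetylated sites numbered 8575 and 4968, and their non-acetylated ones 14 and 19. Both acetylated day 3 sites nearest to Col1a2, a chain of type I collagen, were acetylated in MEF and bound in no day 9 or ESC library. The site 1532 bp from its start was still bound on day 6, then in 0 of 3 H3K27ac libraries. Twist1, which codes for a transcription factor of mesenchymal cells, had 3 acetylated sites on day 3 and none on day 6, when no site bound in both KLF4 libraries remained at its start. Runx1, a transcription factor active in fibroblasts, went from 5 to 2 acetylated sites. Vim, the intermediate filament vimentin, kept acetylated KLF4 at its start on both days and was bound and acetylated on day 9 as well. Of the 28 acetylated day 3 sites of this list, 10 lay within 2.5 kb of a gene start and 6 were bound in both serum ESC libraries (21.4%), against 52.9% of all acetylated day 3 sites.

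Several epithelial genes carried KLF4 on days 3 and 6 without an H3K27ac peak and had one on day 9. The list had 19 non-acetylated sites on day 3 and 31 on day 6, and of the 31, 26 were bound in both day 9 libraries and 23 were acetylated in both (74.2%). The shares among all 6538 non-acetylated day 6 sites were 70.8% bound and 54.2% acetylated on day 9. Cdh1, the epithelial cadherin, had 5 non-acetylated sites on day 6, and all 5 were bound and acetylated in both day 9 libraries. One of them, upstream of the gene, had been acetylated in all 3 libraries on day 3. The site at chr8:106609028-106609429, within Cdh1, had a peak in 0 of 2 MEF, 0 of 3 day 3, 0 of 3 day 6, 2 of 2 day 9 and 2 of 2 ESC H3K27ac libraries. Cldn3, which codes for a tight junction claudin, was bound 303 bp from its start on day 3 and 250 bp on day 6, without H3K27ac on either day. It gained H3K27ac in both day 9 libraries and had none in ESC. Grhl2, a regulator of epithelial genes, had 4 non-acetylated sites on day 3 and 6 on day 6, of which 5 were bound and 4 acetylated in both libraries on day 9. Epcam, a surface adhesion molecule, differed in that its site 674 bp from the start was non-acetylated on day 3 and in all 3 H3K27ac libraries by day 6. Ap1m2, an epithelial sorting adaptor, had an acetylated site on both days, also acetylated in MEF.

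Pluripotency genes held both kinds. The site 4552 bp from the start of Nanog, a core pluripotency factor (chr6:122702427-122703448), was acetylated in every library of every stage, MEF included. Fbxo15 and Gdf3, both expressed in pluripotent cells, were bound and acetylated on both days, and the Fbxo15 site had no H3K27ac peak in MEF. Zfp42, a marker of naive pluripotency, was bound 189 bp from its start on day 3 at a score percentile of 85.7 and 145 bp from it on day 6 at 93.3, with no H3K27ac on either day or in MEF. It was acetylated in both day 9 and both ESC libraries. The site 1997 bp from the start of Pou5f1, the gene of OCT4 (chr17:35503875-35504196), had no H3K27ac peak before day 9. Its score percentiles on day 3 were far apart, at 73.7 in one library and 2.94 in the other, and on day 6 their mean was 94.5. A second Pou5f1 site, 227 bp from the start, was in all 3 H3K27ac libraries on day 3 and was not a site of day 6. Prdm14, a regulator of naive pluripotency, went from 1 to 4 non-acetylated sites, and all 4 were bound in both day 9 and both ESC libraries. Tdgf1, a Nodal co-receptor, was bound 74 bp from its start on day 3 without H3K27ac and was acetylated in both day 9 and both ESC libraries. Of the 23 non-acetylated day 6 sites of this list, 21 were bound on day 9 (91.3%) and 18 in serum ESC (78.3%), where the shares of all non-acetylated day 6 sites were 70.8% and 40.6%. Of its 8 acetylated day 6 sites, 6 and 5 were (75% and 62.5%), where the shares of all acetylated day 6 sites were 85.3% and 71.7%. On day 6 the acetylated sites of this list were thus not the more often bound. On day 3 they were, with 7 of 10 bound on day 9 and 7 of 10 in ESC, against 13 of 22 non-acetylated sites at each stage. These counts are small and carry no test. Sites inside the transcribed parts of Pou5f1, Sox2, Klf4 and Myc can also collect reads from the cassette, which the peak lists do not separate.

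Most AP-1 genes, which code for Fos and Jun proteins and their partners, carried acetylated KLF4. Of 9, 8 had an acetylated and 4 a non-acetylated day 3 site, and 7 and 3 had them on day 6, beside 26.3% and 18.4% of all genes on day 3 and 18.9% and 21.1% on day 6. Jund was bound and acetylated near its start in every library of every stage, and Fos had 3 acetylated sites on day 3 and 2 on day 6. Fosb alone in this list had more on day 6, going from 1 to 4. Fosl1 was the AP-1 gene with non-acetylated sites alone, and its site was acetylated in MEF, in 0 of 3 libraries on each of days 3 and 6, and again on day 9. The 9 genes of the KLF family all had an acetylated site on day 3 and 6 of them had one on day 6, while 8 had a non-acetylated site on each day, all above the same shares of all genes. Klf3 had 7 acetylated sites on day 3 and 2 on day 6, and Klf5 went from 2 to 0. Klf10 rose from 1 to 2 and Klf13 from 3 to 4, Klf9 had 5 on each day, and the other members fell. The site at the start of Klf4 was acetylated and bound in every library of every stage. Of 17 genes of other lineages, none had an acetylated site on either day, and 3 and 6 had non-acetylated ones, the first close to the 18.4% of all genes on day 3 and the second above the 21.1% on day 6. Pax6, a neural regulator, was among these on both days.

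KLF4 was found again at later stages more often where its site had been acetylated. Of acetylated day 3 sites, 70.4% and 72.9% had a peak in the 2 day 9 libraries, against 55.4% and 56.9% of non-acetylated sites. In serum ESC the shares were 54.6% and 69.6% against 32.4% and 46.8%, and in 2i they were 56.3% and 56.8% against 28.6% and 30.8%. The classes did not overlap within any stage, although the ESC libraries differed from each other by more than the day 9 or 2i libraries did. The mean difference was 21.6 points, positive in 6 of 6 libraries (two-sided exact permutation p = 0.031, the smallest for 6 libraries, adjusted p = 0.0625). It was 34.9 points when the day 3 sites came from the DG-4040 library alone.

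Day 6 sites showed the same order at a higher level. Of acetylated day 6 sites, 88.2% and 90.9% were bound on day 9, against 76.3% and 78.4% of non-acetylated ones. In serum ESC the shares were 73.2% and 90.1% against 42.4% and 59.5%, and in 2i 80.3% and 76.1% against 38.6% and 39.4%. The mean difference was 27.4 points, positive in 6 of 6 libraries (exact permutation p = 0.031, adjusted p = 0.0625). With batch EA-3702 alone setting sites and classes the day 6 difference was 14.7 points. Neither difference passed 0.05 after adjustment, and leaving out any of the 6 libraries makes 0.05 out of reach. Sites moved by 1 Mb were bound in 0.773% to 1.75% of cases.

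**Figure D3:**
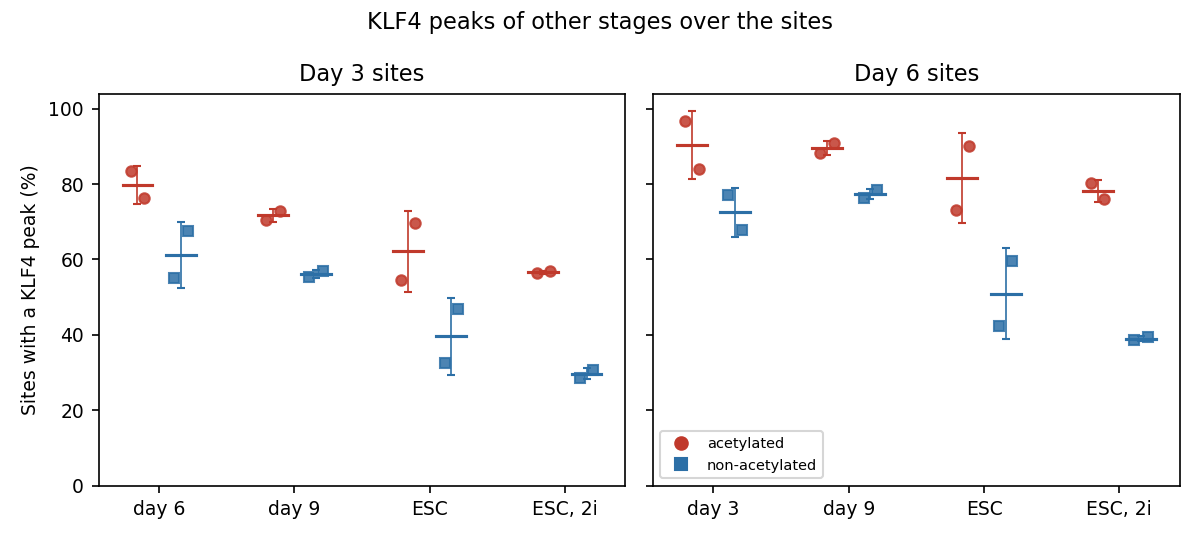
Share of day 3 sites (left) and day 6 sites (right) with a KLF4 peak in libraries of other stages (%, vertical axis), for acetylated sites (circles) and non-acetylated sites (squares); points are libraries, horizontal lines means and bars SD (n = 2). The acetylated class is above the non-acetylated class in each of the 16 comparisons, by 8.75 to 41.7 points.

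Following single sites through both end points gave the same picture. Of acetylated day 3 sites, 3865 (45.1%) were bound in both day 9 and both serum ESC libraries, and 1246 (14.5%) in none of the 4. Of non-acetylated ones, 1336 (24.0%) were bound in all 4 and 1603 (28.8%) in none. On day 6, 65.7% of acetylated and 33.8% of non-acetylated sites were bound in all 4. A further 1457 non-acetylated day 6 sites (22.3%) were bound in both day 9 libraries and in neither ESC library, against 264 acetylated ones (5.31%).

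Distance to a gene start differed between the classes, so the comparison was also made among near and among distal sites. Among sites within 2.5 kb of a start the mean difference was 17.9 points for day 3 and 15.4 points for day 6. Among distal sites, over 2.5 kb away, it was 7.11 points for day 3 and 20.1 points for day 6. Distal acetylated day 3 sites were bound at 63.7% ± 0.794 on day 9, 43.9% ± 8.84 in ESC and 30.4% ± 3.05 under 2i (means ± SD, n = 2). Distal non-acetylated day 3 sites were bound at 55.1% ± 1.16, 36.3% ± 9.58 and 25.4% ± 2.01. For day 6 the distal acetylated sites were bound at 91.2% ± 1.69, 71.8% ± 12.0 and 55.3% ± 3.51, and the distal non-acetylated ones at 77.4% ± 1.09, 47.1% ± 11.7 and 33.5% ± 1.77.

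Distal day 3 sites of like KLF4 score did not keep this order, in a split chosen after seeing the data. With sites split into 4 score groups by their mean percentile, distal acetylated day 3 sites were bound on day 9 less often than non-acetylated ones in each group. The differences were -11.7, -12.7, -8.71 and -3.90 points from the weakest to the strongest. Averaged over the groups, the difference was -9.57 and -8.90 points in the 2 day 9 libraries, -2.40 and -3.88 in ESC, and -1.50 and -0.840 in 2i. The 2i average is negative through the strongest group alone, at -8.25 points, where the weaker groups had 1.07, 0.947 and 1.55. Distal day 6 sites gave 1.10 and 4.11 points on day 9, 11.4 and 16.1 in ESC, and 15.0 and 17.2 in 2i. The mean over 6 libraries was -4.51 points for day 3 and 10.8 points for day 6. Each had an unadjusted exact permutation p = 0.031, which is fixed once all 6 libraries share a sign. This split is not among the 10 adjusted tests, so the p-value adds nothing to the signs. Of 19 alternative settings for each day, 11 for day 3 and 12 for day 6 kept the sign but missed an unadjusted 0.05. Another 2 reversed the day 3 sign. Settings that leave 5 later libraries cannot give a p below 0.0625. The day 3 value depends on how the sites are set: it was 13.8 points with sites and scores of the DG-4040 library alone and -1.07 with those of EA-3702 alone, and it was 5.28 when intervals had to share 50% of the shorter one. The day 6 value was 5.95 with EA-3702 alone and 19.8 with DG-4040 alone. Near a gene start the difference within score groups was positive for both days, at 12.7 and 10.3 points.

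**Figure D4:**
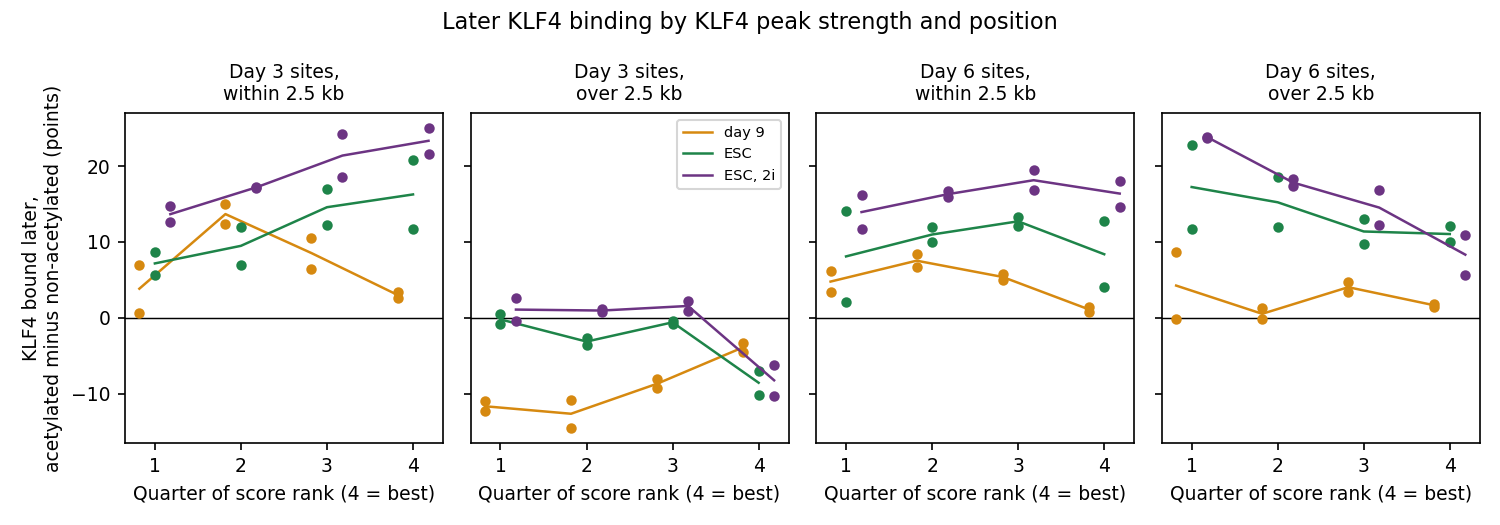
Difference in later KLF4 binding between acetylated and non-acetylated sites (percentage points, vertical axis) by score group (horizontal axis, 4 the strongest KLF4 peaks), for sites within and over 2.5 kb of a gene start; points are single libraries of day 9, ESC and ESC in 2i, and lines join their means. The means of distal day 3 sites fall below 0 on day 9, from -12.7 to -3.90 points, and in ESC, from -8.57 to -0.221 points. The means of distal day 6 sites lie above 0 on day 9, from 0.515 to 4.24 points, and in ESC, by up to 17.2 points. In groups 1 and 2, single libraries cross 0, at -0.206 and -0.231 for day 6 sites on day 9. In group 1, a single ESC library does so for day 3 sites, at 0.428. Averaged over groups and 6 libraries, the distal day 3 value is -4.51 points, and 13.8 when the DG-4040 library alone sets the sites.

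Acetylation before and after also set the classes apart. Of acetylated day 3 sites, 77.2% and 77.4% had an H3K27ac peak in the MEF libraries and 93.8% and 94.7% in those of day 9, with 74.6% and 74.3% in ESC. The 3 day 6 libraries gave 68.9%, 65.0% and 83.5%, the last from EA-3702. The stages did not differ past the threshold (exact permutation F test, F = 5.54, p = 0.0738, adjusted p = 0.123). Without the EA-3702 day 6 library the F was 131 and the unadjusted p 0.00952.

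Non-acetylated day 3 sites were low in H3K27ac in MEF, lowest on day 6, and highest on day 9. Peaks were found over 16.0% and 15.8% of them in MEF, over 3.25%, 2.21% and 8.07% on day 6, over 43.5% and 44.6% on day 9, and over 26.6% ± 0.534 (SD, n = 2) in ESC. Over all 17909 day 3 sites the order was the same, with 34.7% to 49.7% on day 6, 50.6% and 50.7% in MEF, 52.4% and 52.8% in ESC, and 73.3% and 74.4% on day 9. Over non-acetylated sites the 4 stages did not overlap (exact permutation F test, F = 162, p = 0.000794, adjusted p = 0.00794). Libraries of day 9 are all from EA-3702 and those of MEF and ESC all from DG-3458, and the exact permutation within batches gave p = 0.00741.

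Over day 6 sites, H3K27ac was again highest on day 9, while day 3 stood above MEF for acetylated sites and overlapped MEF for non-acetylated ones. Acetylated ones had a peak in 88.2% and 88.4% of cases in MEF, 97.5%, 94.6% and 93.8% on day 3, 99.9% and 100.0% on day 9, and 93.2% and 92.7% in ESC (exact permutation F test, F = 30.3, p = 0.00397, adjusted p = 0.0159). Non-acetylated ones had a peak in 21.5% and 22.0% in MEF, 24.8%, 16.1% and 11.9% on day 3, 59.9% and 62.2% on day 9, and 34.5% and 33.5% in ESC (F = 47.2, exact permutation p = 0.00476, adjusted p = 0.0159). Over all 15157 day 6 sites day 9 was highest as well, at 82.1% and 83.3%, against 49.2% to 60.5% in the libraries of MEF, day 3 and ESC. The day 9 H3K27ac lists, of 43974 and 45506 peaks, were longer than those of day 6 and shorter than those of MEF and ESC, which held 81231 to 88347. The difference between stages of acetylated day 6 sites did not pass an unadjusted 0.05 under a 50% overlap (F = 4.90) and with intervals of 200 bp (F = 4.15).

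**Figure D5:**
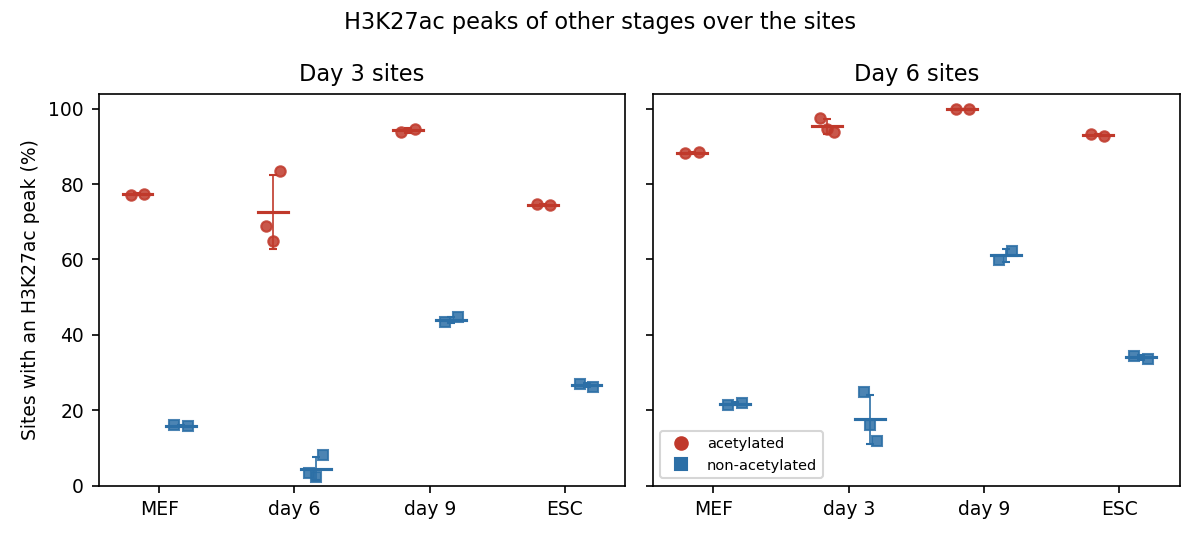
Share of day 3 sites (left) and day 6 sites (right) with an H3K27ac peak in libraries of other stages (%, vertical axis), for acetylated sites (circles) and non-acetylated sites (squares); points are libraries, lines means and bars SD (n = 2, or 3 for days 3 and 6). Non-acetylated day 3 sites go from 15.8% and 16.0% in MEF to at most 8.07% on day 6 and at least 43.5% on day 9.

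Distal day 3 sites were also split by their state in fibroblasts. Of 4009 acetylated ones, 2112 (52.7%) were acetylated in both MEF libraries and 1680 (41.9%) in neither. The first were bound by KLF4 at 58.3% ± 2.08 on day 9, 47.8% ± 9.37 in ESC and 38.6% ± 1.77 under 2i (means ± SD, n = 2), and the second at 70.5% ± 0.589, 39.9% ± 8.29 and 21.5% ± 4.80. Their median score percentiles were 77.6 and 84.1. Sites with no H3K27ac peak in MEF were higher on day 9 and lower in 2i than those already acetylated in MEF, with libraries that did not overlap, and they were lower in each of the 2 ESC libraries, at 34.0% and 45.8% against 41.1% and 54.4%. Distal non-acetylated day 3 sites showed the same order on day 9 and in 2i. Those with no H3K27ac peak in MEF were bound at 56.6% ± 1.10 on day 9 and 24.0% ± 2.19 in 2i, and those with a peak in both MEF libraries at 44.8% ± 1.57 and 33.7% ± 0.996. Near gene starts, 96.2% of acetylated day 3 sites were already acetylated in both MEF libraries.

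Few sites crossed from one class to the other between the days, except distal acetylated ones. The day 6 H3K27ac lists were shorter than those of day 3, at 17493 to 22462 peaks against 41471 to 50836. Shorter lists can leave fewer sites acetylated, and their part in the crossings was not tested. Of acetylated day 3 sites, 6054 were also sites of day 6, and 3708 of these were acetylated there (61.2%), 658 were non-acetylated (10.9%) and 1648 were in 1 or 2 libraries. Near a gene start 2809 of 3396 stayed acetylated (82.7%) and 119 became non-acetylated. Among distal sites 33.8% stayed acetylated and 20.3% became non-acetylated. Of non-acetylated day 3 sites, 2713 were also sites of day 6, and 2245 of them were still non-acetylated (82.7%), while 61 had become acetylated in all 3 libraries (2.25%). The Epcam site near its start was 1 of these 61. The 539 distal sites that went from acetylated to non-acetylated had H3K27ac on day 9 in 85.1% ± 1.97 of cases (SD, n = 2). The 1923 distal sites that were non-acetylated on both days had it in 55.9% ± 1.21.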

How the data were processed

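Peak lists of 22 libraries (12 of H3K27ac, 10 of KLF4) were analysed, 1 per library and with no header; the 13 input libraries were not used here. The submitters' processing notes name cutadapt 1.8.1, Bowtie2 2.2.5, MACS2 2.1.1, deepTools 2.3.6 and the build mm10, without giving steps or settings. Each deposited peak carries 4 values of the authors: a score, its fold enrichment as a ratio, and its p-value and q-value on the −log10 scale. The weakest deposited peaks have a −log10 p-value near 2. Read depth is not given, so that signal may be present where no peak was called, and no interval or detection limit could be set.

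Peaks overlapped when they shared at least 1 bp. Gene starts came from the RefSeq GRCm38.p6 promoter table for 17274 of 21631 protein-coding genes (79.9%), and for the others both gene ends served. Tests were two-sided exact permutations of 1 value per library, with Benjamini-Hochberg adjustment over 10 tests and a threshold of 0.05 (Python 3.11.15, numpy 2.4.6, pandas 2.3.3, matplotlib 3.10.9), and were tested on simulated lists. The rule for named sites took the 8 best mean score percentiles per day and class, 1 per nearest gene, and all genes of 6 lists. Sites, lists and tests were chosen with earlier results of these data known. Gene examples in the text were picked from the lists after their values were seen. Alternatives are given in the closing section.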

Additional observations from a re-analysis of the deposited data

Results flagged for a closer look

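Distal sites compared within 4 groups of like KLF4 score, and averaged over the groups, gave opposite signs for the 2 days in every one of the 6 later libraries. Acetylated minus non-acetylated binding was -9.24 points for day 3 sites and 2.60 points for day 6 sites on day 9 (means of 2 libraries). In ESC it was -3.14 and 13.7 points, and in 2i it was -1.17 and 16.1 points. The day 3 value in 2i is negative through the strongest score group alone, at -8.25 points. The day 6 value was higher in 6 of 6 libraries, by 15.3 points on average, a comparison chosen after seeing the data. Opposite signs in all 6 libraries fix the two-sided exact permutation p at its smallest, 0.031, so the test adds nothing to them. The day 3 sign turned to 13.8 points when the EA-3702 KLF4 library of day 3 was left out, and the value was -1.07 when the DG-4040 one was left out. With a 50% overlap it was 5.28, and with batch EA-3702 alone the values were -2.03 for day 3 and 1.62 for day 6, so that the contrast depends on how the sites are set. No group holds the 4 libraries that a search for an outlying library needs.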

How the results depend on the processing

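Alternatives were judged on unadjusted p-values. The difference in gene start share (39.0 to 55.9 points over 21 alternatives) and in peak width (log2 0.48 to 0.65 over 18) kept its direction in all of them, as did the score percentile (7.26 to 25.4 over 18), and none of these designs can pass 0.05. The acetylated share of day 6 minus day 3 ran from -29.0 to 5.53 points when 1 library was left out, and was -1.40 with batch EA-3702 alone. Its replicate block, which permuted days within same-numbered libraries, gave -14.3 points with exact permutation p = 0.25; same-numbered libraries did not deviate together (correlations of -0.0441 to 0.00608 over regions), although they also share a batch, so that the numbers were not taken as pairs. Peak names in the 2 DG-3458 day 6 lists carry each other's number, and with these swapped the pairs gave 0.0301 and 0.000108. Later KLF4 binding of day 3 and day 6 sites was 19.02 and 21.4 points with day 9 and serum ESC alone, which cannot pass 0.05, and 19.5 to 34.9 and 20.1 to 37.1 points with 1 library left out, which with 5 later libraries gives no p below 0.0625. With batch EA-3702 alone they were 18.7 and 14.7 points. For distal sites within score groups the day 3 value was -4.51 points, against 21.6 for all sites. It was 5.28 with a 50% overlap, -2.37 with 200 bp intervals, -2.03 with batch EA-3702 alone and -1.45 with equal H3K27ac lists, none of them past 0.05. With 1 library left out it ran from -5.25 to 13.8. The day 6 value was 6.35 at a q-value of at most 0.01, 17.3 with a 50% overlap and 12.6 with 200 bp intervals. With batch EA-3702 alone it was 1.62, and again none of these passed 0.05. With 1 library left out the day 6 value ran from 5.95 to 19.8. For H3K27ac at other stages, F over acetylated day 3 sites reached 0.05 with the top 50% of each list (5.56), a 50% overlap (7.92), at least 2 of 3 libraries (7.05) and EA-3702 alone (9.76). It also did so without the DG-4040 KLF4 library of day 3 (5.81) and without the EA-3702 H3K27ac library of day 6 (131). With 1 library left out this F ran from 2.48 to 131. F over acetylated day 6 sites missed 0.05 with a 50% overlap (4.90) and 200 bp intervals (4.15), and ran from 11.7 without the DG-4040 KLF4 library of day 6 to 384 without the EA-3702 H3K27ac library of day 3. Both non-acetylated results stayed past 0.05 in all 23 alternatives each, with F from 86.8 to 1602 and from 23.0 to 284 with 1 library left out. The cause of these changes was not tested.

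Class sizes moved as well. For acetylated and non-acetylated day 3 sites they were 4971 and 2896 at the q-value limit, 4833 and 3311 with the top 50%, and 18896 and 15508 with EA-3702 alone. For day 6 they were 2083 and 3312 with the top 50%, and 12057 and 10468 with EA-3702 alone. Acetylated day 6 sites numbered 3164 at the q-value limit. A 50% overlap left 4564 and 2469 acetylated sites on days 3 and 6, 200 bp intervals left 3210 on day 6, and equal H3K27ac lists gave 8631 non-acetylated day 3 sites. With 1 library left out, where a day with 1 KLF4 library takes all its peaks, sizes ran from 8648 to 13310 and from 5741 to 15244 on day 3, and from 4776 to 7671 and from 6658 to 14308 on day 6. Equal lists, listed starts alone, and the split by position and score with its alternatives were chosen after seeing the data.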
